A study of Lotus japonicus with 36 samples.

Results

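Among the transcripts of Lotus japonicus root nodules, 64 of 41299 loci were chosen for a level that climbed gradually while nitrate was supplied and was still near its nitrate-day height on the last day sampled after nitrate had been taken away. They were chosen from the deposited FPKM values (fragment counts scaled to the length of the transcript model and to the size of the library), with 1 transcript model per locus, the one with the highest mean over all libraries. With v as a group's mean FPKM plus 1, a locus was taken when its T6 mean was at least 5 and below 200 FPKM, v(T1) was below 2.5 times v(T0), v(T2) below 3 times v(T0), v(T4) at least 2 times v(T0), v(T6) at least 3 times v(T0), v(R5) at least 0.8 times v(T6), and v(R5) below 2 times the highest v of the nitrate days. These values chose the members, so the rise up to T6 and the level in R5 are descriptions without a test.

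The nodules came from the MG-20 genotype and were profiled by bulk RNA-seq in 36 libraries, 3 for each of 12 groups. Groups T1 to T6 had received 10 mM KNO3 for 1 to 6 days, groups R1 to R5 had been without it for 1 to 5 days after such a supply, and T0 was the untreated control at 4 weeks after inoculation. All groups carry nodules formed by inoculation. The sources used here do not say after which nitrate day removal began. No untreated nodules of a later age are among the groups, and each day is its own harvest, so day of treatment and plant age cannot be told apart. The libraries of a group are described as biological replicates. In bulk nodules, fewer cells of a type and less RNA per cell cannot be told apart either.

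In legume nodules, rhizobia inside infected plant cells reduce nitrogen gas to ammonium in exchange for plant carbon, and leghaemoglobin keeps free oxygen low around them. Nitrate in the root medium is known to hold back nodule formation and nitrogen fixation, and in mature nodules a lasting supply brings on changes that resemble senescence. Withdrawal of nitrate before the tissue has died is known to let fixation return.

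The members carry no gene names here, since 0 of the 50526 model IDs occur in the RefSeq gene table of assembly LjGifu_v1.2, another accession of the species. The members are therefore given by ID, without function, and the nodule identity of the samples could not be checked on marker genes. The digit after Lj in an ID is the chromosome to which the locus was assigned, with 0 for sequence not placed on one.

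Library totals lay between 34194054 and 45795038 counts, and the 64 members together held between 18283 and 229257 counts of a library. Within groups, a library correlated on average at 0.953 to 0.975 with its fellow replicates (log2 CPM over all tested models). The R5 libraries scattered most: the median coefficient of variation of a member was 35.2% in R5, beside 25% in R4 and between 14.6% and 23.1% in the other groups. In R5, replicate 1 was the lowest library for 47 of the 64 members. The deposited FPKM values are not corrected for composition. The TMM factors, which make that correction in the count test, averaged 0.849 in T6, 1.03 in R5 and 0.981 in T0.

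Which loci qualify depends on that scale and on single libraries. The ratio v(R5)/v(T6) of the members ran from 0.801 to 1.29 with a median of 0.876 on the deposited values, and after division by the TMM factors it ran from 0.648 to 1.07 with a median of 0.725. On the TMM scale 15 of the 64 members kept the R5 condition, and 13 met the whole rule among 21 loci that did. With each of the 36 libraries left out in turn, 16 members met the rule every time, the number of qualifying loci was 121 without R5 replicate 1, and 41 members still qualified without R5 replicate 2. Under both kinds of change the rule held for 6 of 64 members, those least tied to the scale or to 1 library: Lj0g3v0056359.1, Lj0g3v0109409.1, Lj3g3v1012200.1, Lj4g3v2827860.1, Lj5g3v1015180.1 and Lj6g3v1918310.1. They were singled out after their values had been seen. Among them, the counts of Lj0g3v0056359.1 and Lj5g3v1015180.1 were nearly proportional (Pearson r = 0.9997 over the 36 libraries), so these cannot be counted as separate courses.

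The thresholds passed through a continuous range of loci. For v(R5)/v(T6), Lj4g3v0338440.1 lay just inside at 0.801 and Lj2g3v1155630.1 just outside at 0.798, and 1325 loci missed this condition alone. For v(T6)/v(T0), Lj2g3v3018630.2 lay inside at 3.03 and Lj0g3v0119179.1 outside at 2.99, with 263 loci missing only this one. For v(T4)/v(T0), Lj6g3v2218550.1 stood at 2.12 and Lj1g3v3329710.1 outside at 1.99. For v(T2)/v(T0), Lj1g3v4820060.1 stood at 2.99 and Lj0g3v0129659.1 outside at 3.08. The limit on v(T1)/v(T0) kept out no further locus, and the member nearest to it was Lj1g3v4862670.1 at 2.27. For the T6 mean, Lj1g3v1914940.1 lay above the lower limit at 5.86 FPKM with Lj0g3v0203659.1 below it at 4.96 FPKM. At the upper limit, Lj4g3v0119780.2 lay inside at 179 FPKM and Lj4g3v0340640.1 outside at 234 FPKM. The limit on R5 against the highest nitrate day kept out 1 locus, Lj4g3v0166190.1, at a ratio of 2.29, and the nearest member was Lj3g3v1666250.1 at 1.28.

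Most members were present in untreated nodules at a low level. The T0 mean was under 1 FPKM for 16 members, at 1 to below 10 FPKM for 31 and at 10 FPKM or more for 17, and 2 members were listed at 0 in all T0 libraries. The median member level was 4.07 FPKM in T0, 4.83 in T1, 10.0 in T2, 16.3 in T3, 16.0 in T4, 30.4 in T5 and 28.8 in T6. After withdrawal it was 29.8 FPKM in R1, 30.9 in R2 and 35.1 in R3, and then 25.1 FPKM in R4 and 24.0 in R5. The members as a group therefore stood highest on removal day 3, which entered the choice only in picking 1 model per locus.

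**Figure D1:**
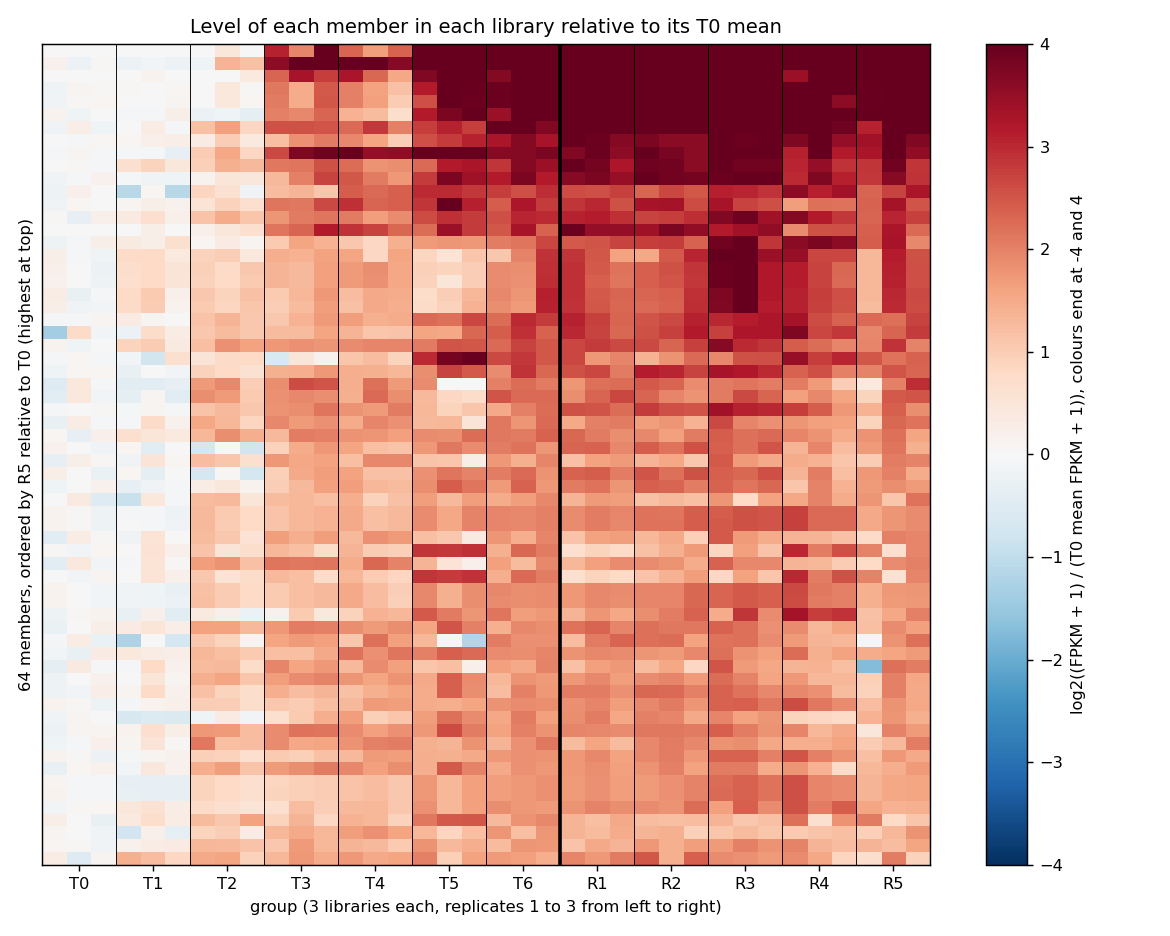
Each row is 1 of the 64 members and each column 1 of the 36 libraries, and the colour is log2 of FPKM plus 1 relative to the member's own T0 mean plus 1. The rows at the top, near white in T0 to T2, reach the end of the colour scale at 4 on later days, and in R5 the first library is paler than the others for many rows.

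All members together took 0.0597 ± 0.0069% of the counts in T0, 0.320 ± 0.031% in T6, 0.359 ± 0.032% in R1 and 0.402 ± 0.032% in R2 (SD, n = 3 each). They took 0.455 ± 0.042% in R3, 0.299 ± 0.027% in R4 and 0.294 ± 0.070% in R5. The 3 R3 libraries held between 0.418% and 0.501%, above the 3 R4 libraries at 0.268% to 0.318%, with no overlap. The R3 and R2 libraries overlapped only between 0.418% and 0.423%. Such a share is a sum in which the most abundant members weigh most, so it does not describe each member. The word gradual covers the choice of days rather than a steady climb: in 3 of 64 members the mean was at or above the day before on every nitrate day, in 29 the T4 mean was below the T3 mean, and the T5 mean lay below both T4 and T6 in 19 members and above both in 18.

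The members that rose furthest started from next to nothing. Lj5g3v0035520.1, a model of 1706 bp on chromosome 5, had 0.03, 0.00 and 0.03 FPKM in T0, 118, 119 and 156 FPKM in T6 and 95.9, 199 and 83.2 FPKM in R5, so that v(R5) was 125 times v(T0). Lj1g3v5021150.1 had 0.32, 0.00 and 0.20 FPKM in T0, 91.7, 133 and 80.8 FPKM in T6 and 91.2, 104 and 81.6 FPKM in R5. Lj6g3v1918310.1 was listed at 0 in all T0 libraries and had 11.8, 17.9 and 18.6 FPKM in T6 and 18.5, 26.4 and 18 FPKM in R5. In all of them the T6 and the R5 libraries lay wholly above those of T0, a separation that the choice of members favours.

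The most abundant members differed from these in how much was present at the start. Lj4g3v0119780.2 had 42.5, 76.6 and 52.4 FPKM in T0, 179, 140 and 219 FPKM in T6 and 101, 214 and 233 FPKM in R5. Lj6g3v0340630.1 had 35.1, 45.8 and 30.5 FPKM in T0, 157, 136 and 134 FPKM in T6 and 35.3, 132 and 176 FPKM in R5. Its R5 replicate 1 lay within the T0 range, so that its place among the kept loci rests on the other two R5 libraries. Lj3g3v3056630.1 had 8.90, 7.09 and 8.19 FPKM in T0, 99.1, 254 and 181 FPKM in T6 and 158, 207 and 159 FPKM in R5.

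Several members had nearly the same course as another member. The counts of 20 members were nearly proportional to those of another member over the 36 libraries (Pearson r above 0.99, a description across libraries that share the nitrate course), in 8 sets, and counting each set once leaves 52 courses. Lj2g3v1455400.1, Lj2g3v1455430.1, Lj2g3v1455440.1 and Lj2g3v1455450.1 on chromosome 2 ran beside Lj5g3v1171040.1, Lj5g3v1171070.1, Lj5g3v1171080.1 and Lj5g3v1171090.1 on chromosome 5, with the same steps between their ID numbers (30, 10 and 10) and pairwise nearly equal lengths, such as 908 bp for Lj2g3v1455430.1 and Lj5g3v1171070.1. The neighbours Lj0g3v0056349.1 and Lj0g3v0056359.1, on unplaced sequence, likewise ran beside Lj5g3v1015170.1 and Lj5g3v1015180.1 of the same 314 bp and 700 bp. How the authors assigned reads that match several loci is not stated, so the values of near-proportional members are uncertain. Most of their deposited counts were not whole numbers (in 91.7% of the libraries for Lj5g3v1015180.1). Over all members the counts were not whole in more than 50% of the libraries for 38 of 64 (59.4%), beside 49.0% of the 20116 loci with a group mean of at least 5 FPKM.

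Length and number of models, which the choice did not use, were close to those of other loci. The median length, derived from counts and FPKM, was 1092 bp for the members, beside 1061 bp for those 20116 loci. A single model was listed for 58 of 64 members (90.6%), beside 85.4%. On chromosome 5 lay 10 members (15.6%, beside 9.23% of the loci), on chromosome 3 lay 4 (6.25%, beside 11.6%) and on unplaced sequence 20 (31.2%, beside 30.5%). By ID order, 11 pairs of members were direct neighbours among the 41298 loci with an Lj ID. The counts by chromosome and of neighbours include the near-proportional members above and were not tested.

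The comparison of T5 with T3 asks how the members moved on later nitrate days. Both groups entered the choice only through the upper limit on R5 and in picking 1 model per locus. Taking T3 and T5 out of the upper limit left the same 64 members. In T5, 19 of 64 members were higher than in T3 (29.7%) and 1 was lower (1.56%), where 6.08% of all 50475 tested models were called higher and 4.58% lower. Calls here rest on the quasi-likelihood test of edgeR, with an adjusted p (Benjamini-Hochberg over all tested models) under 0.05, and on a change of at least 2-fold. The median log2 fold change was 0.72 over the members and 0.04 over all models. Over the 13 members that also met the rule on the TMM scale it was -0.34, with 3 called higher and 0 lower. The rise of the median from T3 to T5 was thus not shared by those 13, of which 4 form a near-proportional set. T4 and T6, the days on either side, entered the choice.

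Lj0g3v0243699.1 had 47.9, 86.7 and 94.0 FPKM in T5, against 3.01, 7.65 and 5.92 FPKM in T3. It is a short model (derived length 122 bp) whose counts were not whole in 75% of the libraries. Its rise was 3.92 ± 0.38 on the log2 scale (SE, edgeR adjusted p = 2.1e-08). Lj5g3v0035520.1 had 43.0, 85.3 and 93.0 FPKM in T5, against 7.55, 2.91 and 15.2 FPKM in T3 (log2 fold change 3.24 ± 0.50, edgeR adjusted p = 2.33e-05). In both, the lowest T5 library was replicate 1 and every T5 library lay above every T3 library. The 1 member that fell was Lj4g3v0119780.2, with 150, 84.1 and 65.7 FPKM in T5, against 253, 248 and 257 FPKM in T3 (log2 fold change -1.12 ± 0.29, edgeR adjusted p = 0.00588). That fall was not called without T5 replicate 2 (log2 fold change -0.97) or without T5 replicate 3 (-0.86, edgeR adjusted p = 0.0512), and 4 members were called lower without T5 replicate 1.

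The comparison of R1 with T5 sets the first day after withdrawal beside nitrate day 5. R1 entered the choice only in picking 1 model per locus, and T5 there and through the upper limit on R5. In R1, 15 of 64 members were higher than in T5 (23.4%) and 3 were lower (4.69%), where 1.38% of all models were called higher and 2.3% lower. The median log2 fold change was 0.47 over the members and -0.05 over all models. Counting each set of near-proportional members once, 11 were higher and 2 lower. Over the 13 members that also met the rule on the TMM scale the median was 1.39, with 8 called higher and 0 lower. T6, the nitrate day after T5, entered the choice. The T5 mean lay below both the T4 and T6 means in 19 of 64 members, in 8 without overlap of libraries. It lay above both in 18 members, in 4 without overlap. A rise from T5 to R1 can therefore fall between T5 and T6, and this comparison cannot place it on the first withdrawal day. These dips and peaks in T5 were not counted over all loci, so they cannot be called a trait of the members.

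The rises were led by 2 neighbouring models on chromosome 5 whose counts ran nearly proportional to those of models on unplaced sequence. Lj5g3v1015180.1 had 15.1, 10.2 and 8.40 FPKM in R1, against 2.98, 1.94 and 3.17 FPKM in T5 (log2 fold change 2.18 ± 0.36, edgeR adjusted p = 0.000354). Lj5g3v1015170.1 had 10.5, 7.27 and 6.47 FPKM in R1, against 1.5, 1.99 and 2.74 FPKM in T5 (log2 fold change 2.11 ± 0.42, edgeR adjusted p = 0.00264). The T5 level of Lj5g3v1015180.1 was itself a dip, since its mean was 5.81 FPKM in T4, 2.70 in T5 and 9.51 in T6. Lj3g3v3056630.1 had 346, 381 and 192 FPKM in R1, against 80.8, 122 and 191 FPKM in T5, a rise of 1.39 ± 0.27 on the log2 scale (edgeR adjusted p = 0.00215). In all of these rises the R1 and T5 libraries did not overlap, although for Lj3g3v3056630.1 the lowest R1 library and the highest T5 library were 192 and 191 FPKM.

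The falls were those of members with a peak in T5. Lj4g3v0338440.1 had 11.4, 13.6 and 12.5 FPKM in R1, against 56.2, 54.4 and 58.3 FPKM in T5 (log2 fold change -2.03 ± 0.32, edgeR adjusted p = 0.000234). Lj6g3v2218550.1, of the same 119 bp and nearly proportional counts, had 12.2, 14.7 and 13.5 FPKM in R1, against 59.5, 57.4 and 61.9 FPKM in T5 (log2 fold change -2 ± 0.32, edgeR adjusted p = 0.000267). Whether these are separate measurements cannot be told from the counts. The other fall was that of Lj0g3v0243699.1, at 27.0 ± 10.2 FPKM in R1 and 76.2 ± 24.8 FPKM in T5 (SD, n = 3, log2 fold change -1.32 ± 0.33, edgeR adjusted p = 0.0121).

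**Figure D2:**
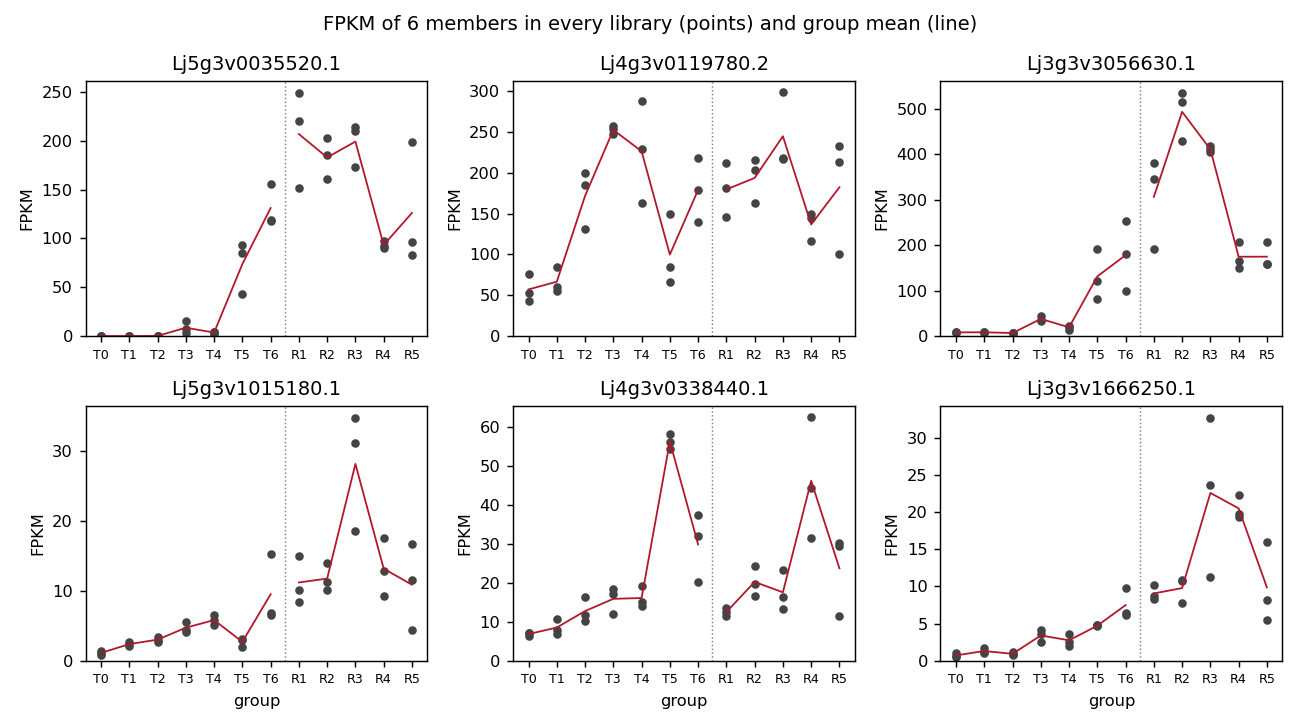
FPKM (vertical axis, from 0) of 6 members in the 12 groups, with 1 point per library and a line through the group means, broken between the nitrate days and the removal days. Lj4g3v0338440.1 has its peaks in T5 and R4 with means of 56.3 and 46.2 FPKM, Lj3g3v3056630.1 in R2 with 494 FPKM, and Lj5g3v1015180.1 in R3 with 28.2 FPKM.

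The comparisons among R1, R2, R3 and R4 follow the members through withdrawal in libraries that did not enter the choice other than in picking 1 model per locus. In R2 against R1, 0 of 64 members were called higher and 0 lower by edgeR, where 4.09% of all models were called higher and 2.57% lower. DESeq2 also called 0, 1 member (1.56%, beside 25.4% of all models) had an unadjusted edgeR p under 0.05, and the fitted log2 fold changes of the members lay between -0.54 and 0.55 with a median of -0.07. A p that misses the threshold does not show equal levels, and here the fitted differences of all 64 were smaller than 2-fold.

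From R2 to R3 most members stood higher without passing the test singly. The fitted log2 fold change of R3 against R2 was positive in 52 of 64 members, with a median of 0.27 beside 0.01 over all models. Calls were made for 3 members higher (4.69%) and 0 lower, where 0.622% of all models were called higher and 0.479% lower. For the lower direction DESeq2 also called 0, and over both directions 18 members (28.1%, beside 10.8% of all models) had an unadjusted edgeR p under 0.05. The 3 were Lj3g3v1666250.1, Lj0g3v0056359.1 and Lj5g3v1015180.1, and since Lj0g3v0056359.1 and Lj5g3v1015180.1 are near-proportional they make 2 distinct courses. Their calls did not hold without R2 replicate 1, R2 replicate 2, R3 replicate 1 or R3 replicate 2, each of which left 0 calls, and DESeq2 called 5 members. That of Lj5g3v1015180.1 was also lost without R2 replicate 3 (edgeR adjusted p = 0.0542).

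Lj5g3v1015180.1 had 31.2, 34.8 and 18.6 FPKM in R3, against 10.1, 11.2 and 14 FPKM in R2 (log2 fold change 1.28 ± 0.33, edgeR adjusted p = 0.0428). Lj3g3v1666250.1 had 23.7, 32.8 and 11.3 FPKM in R3, against 10.7, 10.9 and 7.74 FPKM in R2 (log2 fold change 1.23 ± 0.30, edgeR adjusted p = 0.0268). Replicate 3 was the lowest R3 library in both, as it was for 35 of the 64 members. The groups did not overlap for either gene, but R3 replicate 3 of Lj3g3v1666250.1 was only just above the highest R2 library.

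The comparison of R3 with R1 was added after most members had been seen to stand highest in R3. Here 4 of 64 members were called higher (6.25%) and 0 lower, where 3.39% of all models were called higher and 2.05% lower, and the median log2 fold change was 0.28 beside 0.00 over all models. For the lower direction DESeq2 also called 0, and over both directions 17 members (26.6%, close to the 25.5% of all models) had an unadjusted edgeR p under 0.05. The highest of the calls was Lj0g3v0087079.1, with 32.3, 31.0 and 20.3 FPKM in R3, against 13.2, 9.92 and 4.98 FPKM in R1 (log2 fold change 1.44 ± 0.45, edgeR adjusted p = 0.0353). The others were the 3 named for R3 against R2. Leaving out R1 replicate 2 or R1 replicate 3 left 1 call, and leaving out R3 replicate 2 left 0.

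Among R1 to R4 alone, the highest group mean of a member was in R3 for 38 of 64 members (59.4%), in R2 for 11, in R4 for 9 and in R1 for 6. Of the 29189 loci with a mean of at least 1 FPKM in 1 of these groups, 18.4% were highest in R3. On the TMM scale 33 of the 64 members were highest in R3. The R3 libraries lay wholly above those of R4 in 32 members and wholly below in 4, beside 21.1% and 14.1% of the 32392 loci with a mean of at least 1 FPKM in any group.

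In R4 against R3 few members were called. Of the 64, 2 were called higher (3.12%) and 1 lower (1.56%), where 6.29% of all models were called higher and 2.33% lower, and the median log2 fold change was -0.44 beside -0.02 over all models. The fitted change was negative in 48 of 64 members, and 15 members (23.4%, beside 19.7% of all models) passed the adjusted p with no fold threshold. The member that fell was Lj3g3v3056630.1, with 150, 207 and 166 FPKM in R4, against 404, 411 and 418 FPKM in R3 (log2 fold change -1.15 ± 0.27, edgeR adjusted p = 0.00317). The members that rose were Lj6g3v2218550.1 and Lj4g3v0338440.1, a near-proportional pair. Lj6g3v2218550.1 had 67.0, 34 and 48.0 FPKM in R4, against 14, 24.4 and 17.3 FPKM in R3 (log2 fold change 1.52 ± 0.31, edgeR adjusted p = 0.000926). Falls numbered 6 without R4 replicate 2, 4 without R4 replicate 1 or without R3 replicate 3, and 2 without R3 replicate 2. R4 replicate 1 was the highest R4 library in 42 of 64 members.

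Over the whole span, R4 against R1, 4 of 64 members were called higher and 4 lower (6.25% each), where 12.7% of all models were called higher and 8.52% lower. The median log2 fold change was -0.23 over the members and -0.01 over all models. Over the 13 members that also met the rule on the TMM scale it was 0.20, with 1 called higher and 0 lower. Among all 64, the rises were those of Lj4g3v0338440.1 and Lj6g3v2218550.1, then Lj5g3v1811810.2 and Lj3g3v1666250.1. Lj4g3v0338440.1 had 62.7, 31.6 and 44.3 FPKM in R4, against 11.4, 13.6 and 12.5 FPKM in R1 (log2 fold change 1.86 ± 0.32, edgeR adjusted p = 3.24e-05). Lj5g3v1811810.2 had 104, 68.8 and 76.2 FPKM in R4, against 25.4, 34.2 and 29.0 FPKM in R1 (log2 fold change 1.45 ± 0.31, edgeR adjusted p = 0.000449). Every R4 library of these genes was above every R1 library.

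The falls over the same span were those of Lj1g3v1914940.1, Lj5g3v0035520.1, Lj0g3v0102869.1 and Lj0g3v0065479.1. Lj1g3v1914940.1, listed at 0 in all T0 libraries, had 2.68, 4.88 and 5.02 FPKM in R4, against 14.1, 10.3 and 10.3 FPKM in R1 (log2 fold change -1.50 ± 0.40, edgeR adjusted p = 0.00353). Lj0g3v0065479.1 had 24.0, 23.1 and 21.9 FPKM in R4, against 48.0, 54.5 and 38.4 FPKM in R1 (log2 fold change -1.07 ± 0.20, edgeR adjusted p = 0.000133). Lj5g3v0035520.1 had 97.3, 92.7 and 90.0 FPKM in R4, against 249, 221 and 151 FPKM in R1 (log2 fold change -1.18 ± 0.47, edgeR adjusted p = 0.0447). This last call was lost by DESeq2 (adjusted p = 0.129) and without R1 replicate 1, R1 replicate 2 or any R4 library. Falls numbered 7 without R1 replicate 3 or R4 replicate 2 and 2 without R1 replicate 1 or R1 replicate 2. None of these falls brought the R4 libraries into the T0 range, which was 0.00 to 0.03 FPKM for Lj5g3v0035520.1 and 11.3 to 13.5 FPKM for Lj0g3v0065479.1.

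In 61 of 64 members (95.3%) the means of R1, R2, R3 and R4 each gave a v of at least 2 times v(T0). The same held for 719 (77.8%) of 924 loci that met the nitrate-day conditions but had v(R5) below 0.5 times v(T6). In 40 members (62.5%) v(R2), v(R3) and v(R4) were all at least 0.8 times v(R1), and in 3 (4.69%) at least 1 of them was below 0.5 times v(R1). Of those 924 loci, these counts were 113 (12.2%) and 421 (45.6%). On the TMM scale 29 members and 55 of those 924 loci kept the limit of 0.8. The choice of members favours such counts, since it required v(T6) of at least 3 times v(T0) and v(R5) of at least 0.8 times v(T6). The difference between the sets is favoured too, since R5 relative to T6 divided them. These counts are therefore a description, and they were not made over all loci.

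**Figure D3:**
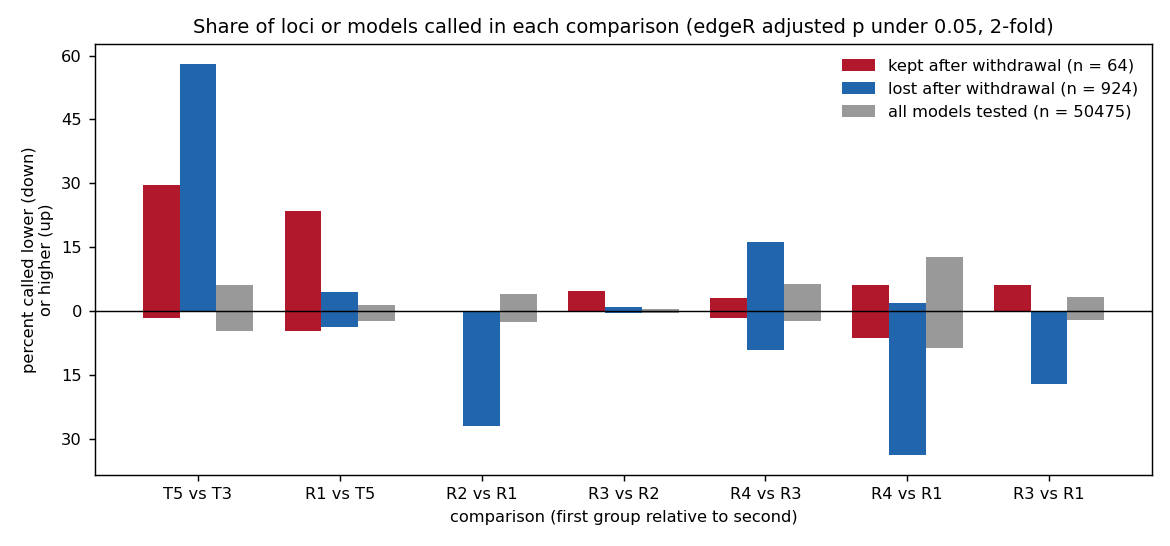
Percent of the 64 members, of 924 lost loci and of all 50475 tested models called higher (above 0) or lower (below 0) in each comparison. Calls are by edgeR with adjusted p under 0.05 and a 2-fold change. The lost loci met the same nitrate-day conditions but had v(R5) below 0.5 times v(T6). In R2 against R1 the members have no bar in either direction, and 26.8% of the lost loci lie below 0.

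The nearest group for comparison met the same conditions on T1, T2, T4 and T6 but had v(R5) below 0.5 times v(T6), and held 924 loci. In R2 against R1, 0 of the 64 kept members and 248 of the 924 lost loci (26.8%) were called lower, and 0 of either were called higher. The median log2 fold change was -0.07 in the kept and -0.72 in the lost loci. In R3 against R1 it was 0.28 in the kept and -0.69 in the lost loci, with 0 of the kept and 157 of the lost (17.0%) called lower. In R4 against R1, 4 of the kept (6.25%) and 312 of the lost loci (33.8%) were called lower. The lost loci did not fall on every day. In R4 against R3, 151 of them (16.3%) were called higher and 84 (9.09%) lower, beside 2 (3.12%) and 1 (1.56%) of the kept. R5 relative to T6 divided the sets and no test of the difference between them was made, so these shares stand side by side as a description.

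The nitrate days are given beside these values as a description, since T1, T2, T4 and T6 entered the choice of both sets and a high T6 level favours a place among the lost loci. The median log2 of v relative to v(T0) was 1.51 in the kept and 1.52 in the lost loci in T3, and 1.61 and 2.04 in T4. It was 1.95 in the kept and 2.68 in the lost loci in T5, and 1.99 and 2.88 in T6. In R5, which divided the sets, it was 1.78 in the kept and 1.21 in the lost loci, so the median of the lost loci still stood above T0. In T5 against T3, 29.7% of the kept and 58.1% of the lost loci were called higher. In R1 against T5 those shares were 23.4% of the kept and 4.44% of the lost loci.

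**Figure D4:**
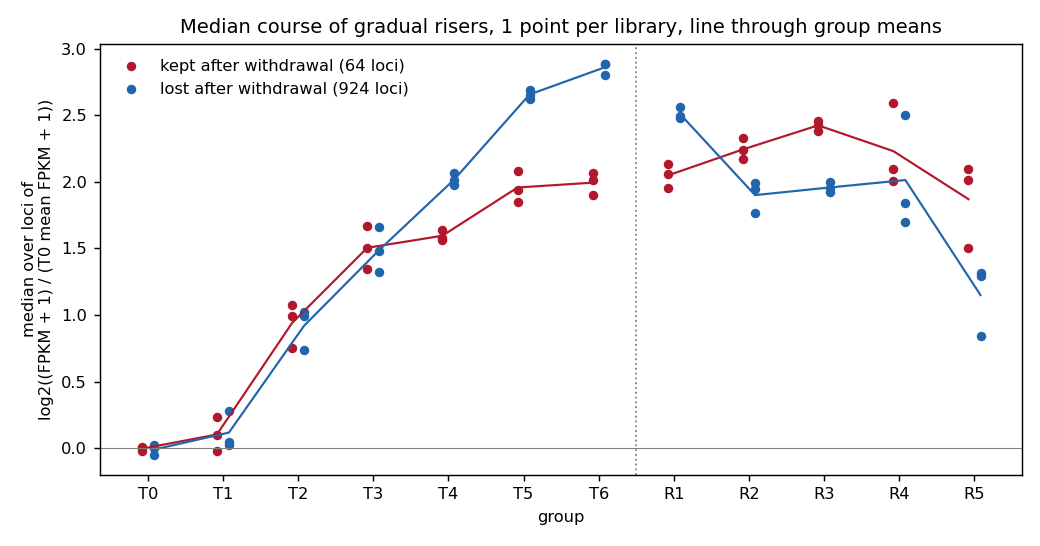
Median over loci of log2 of FPKM plus 1 relative to the locus's T0 mean plus 1, with 1 point per library and lines through the group means, for the 64 kept and the 924 lost loci. In R2 the kept libraries lie between 2.17 and 2.33 and the lost ones between 1.77 and 1.99, and in R3 the kept libraries lie between 2.39 and 2.46.

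The 6 members least tied to scale or to 1 library include the near-proportional pair Lj0g3v0056359.1 and Lj5g3v1015180.1. Of the others, Lj0g3v0109409.1, Lj4g3v2827860.1 and Lj3g3v1012200.1 are described here for their different courses after withdrawal. Lj0g3v0109409.1 had 4.56, 4.79 and 4.96 FPKM in T0, and its means were 21.3 ± 5.35 FPKM in T6, 30.3 ± 3.70 in R1, 34.9 ± 3.83 in R2 and 50.9 ± 7.04 in R3, then 28.9 ± 10.4 in R4 and 21.0 ± 7.59 in R5 (SD, n = 3). Lj4g3v2827860.1 had 5.70, 7.76 and 6.56 FPKM in T0, and its means were 51.8 ± 6.94 FPKM in T6, 46.6 ± 2.57 in R1, 42.5 ± 5.30 in R2 and 61.2 ± 4.78 in R3, then 78.1 ± 12.9 in R4 and 53.0 ± 17.5 in R5. The first was highest in R3 and the second in R4. Lj3g3v1012200.1 had 0.15, 0.08 and 0.20 FPKM in T0, and its means were 11.3 ± 1.97 FPKM in T6, 16.7 ± 3.28 in R1, 13.5 ± 0.958 in R2 and 18 ± 1.52 in R3, then 16.2 ± 5.45 in R4 and 14.3 ± 3.72 in R5. Its R1 to R5 means thus stayed within a narrow band. In R1 against T5, Lj0g3v0109409.1 rose (log2 fold change 1.51 ± 0.22, edgeR adjusted p = 0.000136), and Lj3g3v1012200.1 rose there too (1.39 ± 0.31, edgeR adjusted p = 0.0068). For Lj0g3v0109409.1 the T5 level was itself a dip, with means of 20.1 FPKM in T4, 11.6 in T5 and 21.3 in T6. Lj4g3v2827860.1 rose in T5 against T3 (1.94 ± 0.26, edgeR adjusted p = 3.68e-06). T3 and T5 entered the choice only through the upper limit on R5 and in picking 1 model per locus.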

How the data were processed

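Root nodules were profiled by RNA-seq. The tools named in the submitters' processing notes are fastp 0.22.0, HISAT2 and featureCounts. Build, gene models, strand use and the handling of reads with several matches are not stated there. The authors deposited estimated counts and FPKM values for 50526 transcript models, of which 1 carries another kind of ID (0.00595% of the counts). Fractions occur in 49.6% of the deposited estimated counts (tolerance 0.001). How the authors made the deposited FPKM values is not stated. Model lengths were derived from count, FPKM and library total. They are the lengths implied by the deposited values and may differ from annotated lengths. Among the 20116 loci with a group mean of at least 5 FPKM they ran down to 20.0 bp.

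Estimated counts were rounded and tested with edgeR 4.0.16 in R 4.3.3 (TMM, filterByExpr, glmQLFit and glmQLFTest) in 1 model of all 36 libraries, 50475 models and 12 groups. Each SE was taken as the absolute log2 fold change divided by the square root of the F statistic. Fold changes come from counts on the TMM scale, printed levels from deposited FPKM. DESeq2 1.42.0, RLE size factors, no filter, a fit of the 6 libraries compared, a replicate block, other pseudocounts and group medians in the rule, FPKM divided by TMM factors, and each library left out were alternatives. The comparison of R3 with R1 was added after seeing the data. The procedure was tested on simulated data. The members and lists were chosen with earlier results of these data known. Named members were the 2 largest rises and 2 largest falls called without overlap of libraries in T5 against T3, R1 against T5, R2 against R1 and R4 against R1, the 3 highest in T6 and in v(R5)/v(T0), those nearest each threshold, and the largest change in R3 against R2 and R4 against R3. Other members are named where 5 or fewer were called or where the text says so, after their values were seen.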

Additional observations from a re-analysis of the deposited data

How the results depend on the processing

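Most counts of called members were within 1.5 times their printed value under RLE size factors, no filter, DESeq2, the 6 libraries alone and the replicate block. The exceptions were these. Members lower in T5 against T3 numbered 0 with the 6 libraries alone and 2 by DESeq2, beside 1. Members higher in R3 against R2 numbered 1 with the replicate block and 5 by DESeq2, beside 3. Members lower in R4 against R3 numbered 2 with the replicate block, 3 with the 6 libraries alone and 2 by DESeq2, beside 1. Same-numbered libraries of the groups compared correlated between -0.24 and 0.12 in their deviations, and in 1 of 7 comparisons every library of the first group correlated best with its own number, so the numbers were not taken as pairs. Without any 1 library, the members higher in T5 against T3 numbered 13 to 23 and lower 0 to 4, in R1 against T5 12 to 19 and 2 to 3, in R3 against R2 0 to 3 higher, in R4 against R3 2 to 3 and 1 to 6, in R4 against R1 4 to 5 and 2 to 7, and in R3 against R1 0 to 5 higher. Under RLE size factors every median log2 fold change of the members kept its sign. The rule took 21 loci after division by TMM factors, 13 of them members, and 53 to 121 loci, with 41 to 64 of the members, without any 1 library. As a share of summed FPKM in place of counts, the members held 0.0465% in T0, 0.259% in T6, 0.278% in R1, 0.351% in R3 and 0.238% in R4. Of 154 alternative values for named members, 134 kept direction and call, 20 lost the call and 0 turned direction. With the replicate block the losses were those of Lj5g3v1015180.1 in R3 against R2 (edgeR adjusted p = 0.0622) and Lj5g3v0035520.1 in R4 against R1 (edgeR adjusted p = 0.0534). The cause of these changes was not tested. Whether short models were measured less precisely than long ones was not tested. In T5 against T3 the SE of the log2 fold change was 0.18 for Lj5g3v1171090.1 (109 bp) and 0.38 for Lj0g3v0243699.1 (122 bp). It was 0.20 for Lj2g3v3336140.1 (2130 bp) and 0.50 for Lj5g3v0035520.1 (1706 bp).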
